A study of Mus musculus with 6 samples.

Results

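The Hox cluster genes encode homeodomain transcription factors. The set described here holds 38 of them, taken by gene symbol from the Hoxa, Hoxb, Hoxc and Hoxd clusters, and 27 had a named probe, 1 each, among the 10634 named genes of the array. The other 11 (Hoxa3, Hoxa4, Hoxb1, Hoxb9, Hoxc10, Hoxc11, Hoxc12, Hoxc13, Hoxd4, Hoxd8 and Hoxd12) were not analysed here. RNA was measured in mouse embryo fibroblasts of a mixed 129/svev and C57Bl/6 background, p38α-deficient (p38α-/-, called KO, n = 3 cultures) or wild type (WT, n = 3 cultures), on 1 CodeLink array per culture. All 6 cultures, WT included, carried the H-RasG12V oncogene, had been immortalised spontaneously by the 3T3 protocol and were grown for 72 h without reaching confluence. p38α is a stress-activated kinase, and the design asks how its loss alters transcription in Ras-transformed cells.

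In the embryo, Hox genes lie in each cluster in the order in which they are used along the body, and genes at the same place in different clusters form a numbered paralog group. Low-numbered groups act toward the head, middle groups in the trunk, and the highest groups at the tail end. In limbs and genitalia the highest groups of the Hoxa and Hoxd clusters pattern the distal parts. Cultured fibroblasts are known to keep a Hox pattern that reflects where in the body they came from.

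The labels call the 3 cultures of a genotype biological replicates and do not say whether they came from separately derived lines. The p-values therefore measure the spread between these cultures, which may be technical, and the genotype and the line of origin cannot be told apart. The files name no hybridisation batch, and the part of one was not tested. The targeted gene, Mapk14, had background-subtracted intensities of 17.6, 18.6 and 8.35 in KO and 60.8, 70.6 and 68.8 in WT. It was above background in 1 KO culture and in all 3 WT cultures, and 1.92-fold lower in KO (limma adjusted p = 7.8e-05). Detection above background ranged over the arrays from 8677 to 10232 of 19801 gene probes, lowest in KO replicate 3, and from 11 to 13 of the 27 Hox probes. Of the fibroblast markers 7 of 10 were above background in both genotypes, while Thy1, Lum and Postn were near background on every array. Fbn1, Vim and Col6a1 were higher in KO (3.25-, 1.77- and 1.75-fold) and Col5a2, Pdgfrb and Dcn lower (2.62-, 1.47- and 1.26-fold). These 3 higher and 3 lower of 10 passed an adjusted p under 0.05 in limma, as did 22.6% of all probes. Of probes above background on at least 1 array, 40.2% passed. The part of the fibroblast markers in the Hox result was not tested. All 6 endothelial markers were near background on every array, and so were 3 of 4 macrophage and blood markers, with Spi1 the exception. In bulk RNA, fewer cells expressing a gene and less RNA per cell cannot be told apart.

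The KO and WT cultures differed in which Hox genes they expressed. In KO, genes of the highest groups of the Hoxa and Hoxd clusters were higher, led by Hoxd11, Hoxa11, Hoxa10 and Hoxd13. In WT, Hoxa5 and genes of the Hoxb and Hoxc clusters were higher, led by Hoxb7, Hoxc9, Hoxc8 and Hoxb6. Of the 27 measured genes, 8 were higher in KO, 10 were lower and 9 did not pass, at an adjusted p under 0.05 in limma over all probes. Over the whole array 10.4% of 19604 probes were called higher and 12.1% lower, together 22.6%. Of the 19 Hox genes above background on at least 1 array, 8 were higher and 9 lower in KO. Among all such probes 40.2% were called in either direction.

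Several genes were detected in 1 genotype alone. Above background on all 3 arrays of 1 genotype and on none of the other were 10 Hox genes, 4 of them in KO and 6 in WT, a state that 2.45% of all probes shared. Called differences of at least 2-fold were found for 11 of the 27 genes and for 3.53% of all probes. The values of the genotypes did not overlap for 19 Hox genes, against 36.0% of all probes. The median difference of the 27 genes was -0.07 on the log2 scale, and that of all probes was -0.008. Across the 27 probes, the Pearson correlation of log2 values between arrays was 0.984 to 0.997 within a genotype and 0.323 to 0.388 between genotypes, a description over probes that share an array. Over all probes it was 0.951 to 0.963 between genotypes.

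**Figure D1:**
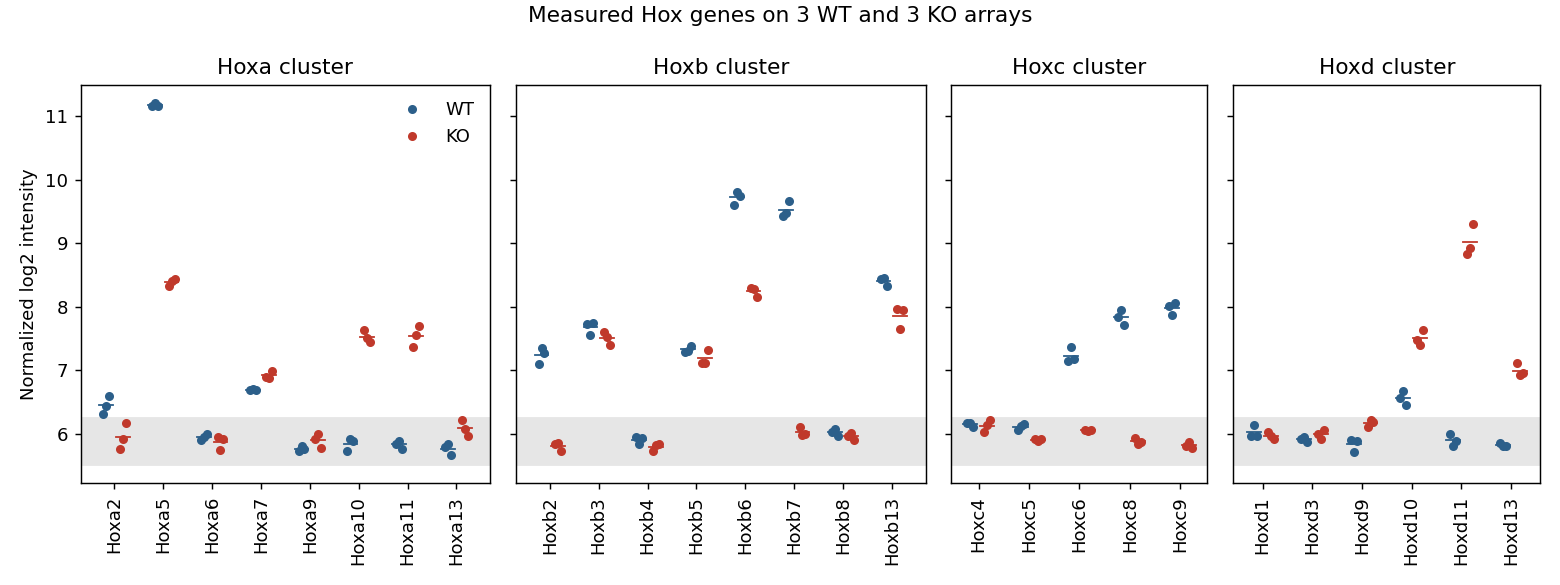
Normalized log2 intensity (y axis) of the 27 measured Hox genes (x axis, in order of paralog group within each cluster) on 3 WT arrays (blue) and 3 KO arrays (red); short lines are group means and the grey band reaches the highest of the arrays' lowest signals above background, 6.24. Intensities of different probes are not comparable with each other. Hoxa2, Hoxb2, Hoxb7, Hoxc6, Hoxc8 and Hoxc9 lie in the band in KO alone, and Hoxa10, Hoxa11, Hoxd11 and Hoxd13 lie in it in WT alone.

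By paralog group, 2 of 5 measured genes of groups 1 to 3 were lower in KO and none higher. Of 12 genes of groups 4 to 8, 6 were lower and 1 was higher. Of 10 genes of groups 9 to 13, 7 were higher and 2 lower. The 2 lower ones, Hoxb13 and Hoxc9, are the measured Hoxb and Hoxc members of those groups. Split by cluster as well, a division made after the values were seen, 7 of 8 Hoxa and Hoxd genes of groups 9 to 13 were higher in KO and none lower, and 8 of 13 Hoxb and Hoxc genes were lower and none higher. The medians of these divisions were 1.05 and -0.54 on the log2 scale. Over all probes 10.4% were higher and 12.1% lower, and 40.2% of probes above background on at least 1 array were called. Among the 7 higher genes, Hoxa13 and Hoxd9 were each above background in 1 KO culture only. Among the 8 lower genes, Hoxc5 was near background on every array. With the offset of the background correction at 0, 5 Hoxa and Hoxd genes of groups 9 to 13 were higher.

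**Figure D2:**
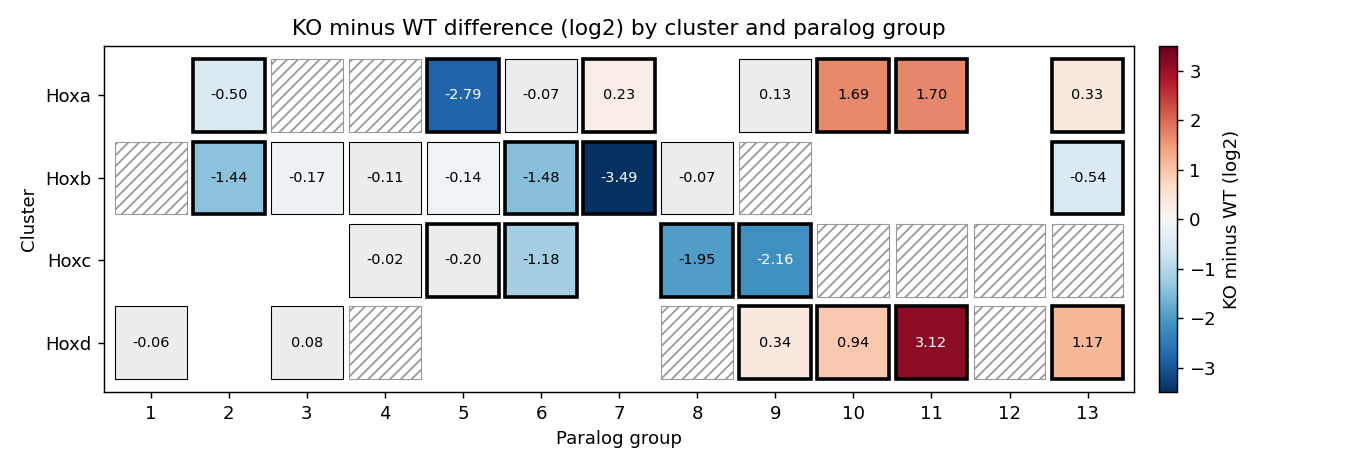
KO minus WT difference on the log2 scale for each gene of the set, with clusters as rows and paralog groups as columns. Thick borders mark an adjusted p under 0.05, grey cells are genes near background on every array, hatched cells were not analysed and blank positions hold no gene of the set. The red cells lie in the Hoxa and Hoxd rows, mainly from group 10 on, and the darkest blue cell is Hoxb7 at -3.49.

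Among the Hoxd genes, Hoxd11, which with Hoxa11 shapes the forearm, had background-subtracted intensities of 476, 518 and 567 in KO and of 8.38, 1.85 and 4.43 in WT. The KO cultures were all bright and the WT cultures all near background. The normalized log2 mean was 9.02 ± 0.25 for KO and 5.90 ± 0.09 for WT (SD, n = 3), at least 7.03-fold higher in KO (limma adjusted p = 1.9e-06). A bound of this kind sets the bright group's mean against, on each dim array, the higher of the lowest signal above background and the probe's own. Among 19604 probes ranked by log2 difference, Hoxd11 was number 36 from the top.

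Hoxd13, a gene of digit and genital development, read 98.4, 75.7 and 69.1 in KO and 3.41, 1.59 and 1.73 in WT. Again no WT culture was above background, and the difference was at least 1.73-fold (adjusted p = 1.3e-05). Hoxd10, which acts in limbs and in motor neurons of the lumbar cord, was above background in both genotypes, at 146, 133 and 141 in KO and 35.5, 44.6 and 28.9 in WT. It was 1.92-fold higher in KO, a log2 difference of 0.94 (SE 0.08, adjusted p = 1.3e-04), without overlap. Hoxd9 was dim, 17.1, 22.3 and 18.8 in KO with 1 array above background and 4.83, -1.74 and 3.98 in WT. It passed the test (log2 difference 0.34, adjusted p = 0.0091) but not with the offset of the background correction set to 0 (adjusted p = 0.066). The RefSeq spans of Hoxd10 and Hoxd11 overlap, so a transcript of one could reach the probe of the other, which was not tested. The same holds for Hoxa5 and Hoxa6 with Hoxa3, for Hoxb3 with Hoxb4 and for Hoxd3 with Hoxd4. The low-numbered Hoxd1 and Hoxd3 were near background on every array.

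Among the Hoxa genes the direction turned along the cluster. Hoxa10, needed for uterine and proximal limb patterning, read 172, 147 and 119 in KO and -0.876, 6.08 and 4.10 in WT. Hoxa11 read 129, 155 and 149 in KO and 2.76, 5.06 and 0.216 in WT. For both genes every KO culture was above background and no WT culture was, and both were at least 2.51-fold higher in KO (adjusted p = 3.9e-06 and 8.9e-06). Hoxa13, the digit and genital gene at the end of the cluster, was above background in 1 KO culture, at 23.2 beside 13.1 and 9.91, with 0.94, 2.37 and -4.16 in WT. Its call (adjusted p = 0.022) held in 9 of 16 alternative settings. Hoxa9 was near background throughout.

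Hoxa5, which acts in lung and airway development and in the neck and upper thorax, went the other way. It read 313, 335 and 286 in KO and 2000, 2190 and 1910 in WT, above background in all 6 cultures and without overlap. The normalized log2 means were 8.39 ± 0.06 for KO and 11.18 ± 0.03 for WT (SD, n = 3). KO was thus 6.91-fold lower (log2 difference -2.79, SE 0.06, adjusted p = 8.1e-08). Hoxa2, a hindbrain and second pharyngeal arch gene, was dim in WT (22.5, 30.5 and 36.5) and near background in KO (0.487, 5.89 and 17.9), at least 1.23-fold lower (adjusted p = 0.018). Hoxa7, a trunk gene, differed little: 77.1, 71.5 and 72.5 in KO and 42.5, 47.5 and 42.1 in WT, 1.17-fold higher on the normalized scale (adjusted p = 0.023). The calls of Hoxa2 and Hoxa7 held in 12 and 10 of 17 alternative settings. Hoxa6, between Hoxa5 and Hoxa7, was near background on every array.

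All called Hoxb genes were lower in KO. Hoxb7, a trunk gene, read 16.4, 8.65 and 11.5 in KO and 564, 624 and 642 in WT. No KO culture was above background and every WT culture was bright. After normalization the log2 means were 6.03 ± 0.06 for KO and 9.52 ± 0.12 for WT (SD, n = 3), at least 10.3-fold lower in KO (adjusted p = 1e-07), and only 5 probes of the array had a lower log2 difference. Its chromosomal neighbour Hoxb6, also a trunk gene, kept signal in KO, at 307, 302 and 226 against 650, 799 and 690 in WT, and was 2.79-fold lower (adjusted p = 6e-06). Hoxb2, which specifies hindbrain segments, read 2.96, 3.08 and -5.98 in KO and 73.4, 105 and 86.4 in WT, at least 2.12-fold lower (adjusted p = 1.1e-05).

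The remaining Hoxb genes differed less or not detectably. Hoxb13, the tail-end gene of the cluster, read 231, 169 and 190 in KO and 258, 283 and 226 in WT. These intensities overlap before normalization and not after it, where Hoxb13 was 1.46-fold lower (log2 difference -0.54, SE 0.10, adjusted p = 0.0048). Hoxb3, a hindbrain and neck gene, and Hoxb5, which acts at shoulder level, were above background on all 6 arrays. Their log2 differences, -0.17 (SE 0.08) and -0.14 (SE 0.07), did not pass (adjusted p = 0.20 and 0.26). When KO replicate 3 was left out, Hoxb5 passed at -0.21 (adjusted p = 0.019). Hoxb4 and Hoxb8 were near background on every array. Hoxb3, Hoxb4 and Hoxb5, which did not pass, lie between Hoxb2 and Hoxb6, which did.

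The Hoxc genes with signal were detected in WT alone. Hoxc9, a gene of the lower thorax, read 2.08, 3.91 and -1.44 in KO and 181, 171 and 180 in WT, at least 3.54-fold lower in KO (adjusted p = 5.9e-07). Hoxc8, also thoracic, read 6.65, 2.90 and 4.20 in KO and 154, 183 and 132 in WT, at least 3.20-fold lower (adjusted p = 1.5e-06). Hoxc6, of the upper thorax, read 13.8, 11.5 and 13.8 in KO and 77.1, 107 and 76.6 in WT, at least 2.11-fold lower (adjusted p = 1.9e-05). For these 3 genes all WT cultures were above background and no KO culture was. Hoxc4 was near background on every array. So was Hoxc5, which was called lower (adjusted p = 0.029), gets no fold, and held its call in 8 of 16 alternative settings.

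The sizes given are compressed for dim probes, because the background correction adds an offset of 50 intensity units before the log. With the offset at 0, Hoxb7 differed by -5.51 on the log2 scale against -3.49 here, Hoxd11 by 5.68 against 3.12, Hoxc9 by -5.01 against -2.16 and Hoxa10 by 4.40 against 1.69. Hoxa11 moved from 1.70 to 4.36, Hoxd13 from 1.17 to 3.56, Hoxc8 from -1.95 to -4.36, Hoxb2 from -1.44 to -4.30, Hoxc6 from -1.18 to -2.62 and Hoxd10 from 0.94 to 1.57. Genes with signal in both genotypes moved less, Hoxa5 from -2.79 to -2.99 and Hoxb6 from -1.48 to -1.65. Of the 18 called genes, 13 kept their call and direction in all 17 alternative settings, 5 higher and 8 lower in KO. The other 5 were Hoxa2, Hoxa7, Hoxa13, Hoxc5 and Hoxd9, which kept their direction and lost the call in some.

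**Figure D3:**
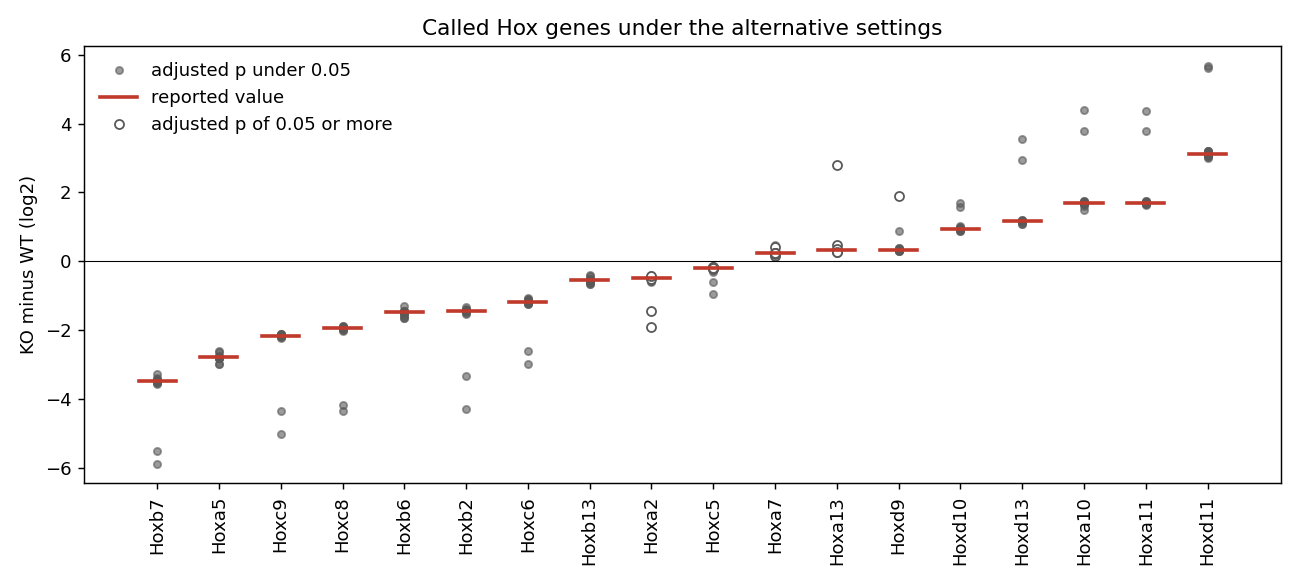
KO minus WT difference on the log2 scale (y axis) of the 18 called Hox genes (x axis, ordered by the reported value, red line) under the alternative settings (points, filled where the adjusted p was under 0.05 and open otherwise). No point crosses 0, and the points farthest from the red lines are those with the offset at 0 and with the authors' value table.

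Promoter windows of 300 bases were available from RefSeq (build GRCm38.p6) for 17 of the 27 genes, 19 windows in all. They are of interest because Hox promoters are typically rich in CpG, the dinucleotide at which Polycomb and Trithorax complexes, which keep Hox genes off or on, are often recruited. The windows held 4 to 45 CpG with a median of 20, against a median of 7 and a 75th percentile of 20 over all 32851 mouse windows. The 10 windows of the 8 genes higher in KO had a median of 20.5. Of the 10 genes lower in KO only Hoxa2 and Hoxa5 had a window, with 9 and 29. No called Hoxb or Hoxc gene had one, so the directions cannot be compared. The motif TTTATG, bound by Cdx factors, was found on either strand in 4 of the 19 windows and in 11.9% of all windows, and TGATNNAT, a joint Pbx and Hox motif, in 3 of 19 and in 8.85%. Shown are 1 gene higher in WT, Hoxa5, and 3 higher in KO, each with a single window. Sequences run 5′ to 3′ as RefSeq gives them, with each CpG in capitals.
Hoxa5 (GRCm38.p6, chr6:52204538-52204837, - strand): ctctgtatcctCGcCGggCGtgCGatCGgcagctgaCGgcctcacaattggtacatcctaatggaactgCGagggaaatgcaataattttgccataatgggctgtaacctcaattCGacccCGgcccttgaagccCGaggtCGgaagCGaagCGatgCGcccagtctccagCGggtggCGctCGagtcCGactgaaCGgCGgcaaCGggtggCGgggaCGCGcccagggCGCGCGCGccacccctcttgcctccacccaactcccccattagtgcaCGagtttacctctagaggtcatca
Hoxa11 (GRCm38.p6, chr6:52245761-52246060, - strand): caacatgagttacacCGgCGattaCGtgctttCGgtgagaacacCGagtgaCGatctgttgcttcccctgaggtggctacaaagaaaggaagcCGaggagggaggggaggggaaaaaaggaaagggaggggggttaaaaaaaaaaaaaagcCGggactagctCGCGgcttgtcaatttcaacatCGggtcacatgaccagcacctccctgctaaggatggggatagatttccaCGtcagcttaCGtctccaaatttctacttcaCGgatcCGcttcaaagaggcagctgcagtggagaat
Hoxd10 (GRCm38.p6, chr2:74691641-74691940, + strand): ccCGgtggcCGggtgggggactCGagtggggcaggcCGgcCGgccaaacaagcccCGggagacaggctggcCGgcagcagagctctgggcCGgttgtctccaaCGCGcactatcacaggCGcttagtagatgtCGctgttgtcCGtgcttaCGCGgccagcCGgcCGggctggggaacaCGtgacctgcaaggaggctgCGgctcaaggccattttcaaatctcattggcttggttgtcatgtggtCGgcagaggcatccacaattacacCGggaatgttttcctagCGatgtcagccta
Hoxd13 (GRCm38.p6, chr2:74667975-74668274, + strand): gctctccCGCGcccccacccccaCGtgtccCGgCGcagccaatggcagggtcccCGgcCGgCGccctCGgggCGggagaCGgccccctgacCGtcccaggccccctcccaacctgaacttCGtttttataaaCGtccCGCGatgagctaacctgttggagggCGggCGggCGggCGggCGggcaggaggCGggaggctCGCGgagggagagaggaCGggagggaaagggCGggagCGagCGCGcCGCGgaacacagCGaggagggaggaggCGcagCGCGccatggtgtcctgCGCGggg
These windows held 29, 15, 22 and 37 CpG, in the order shown. With only 2 windows of genes lower in KO, they cannot show whether the number differs between the directions.

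Hox proteins bind DNA together with the TALE homeodomain cofactors of the Pbx, Meis and Pknox families. Of 7 measured cofactors 4 were lower in KO and 3 did not pass, where 12.1% of all probes were lower. All 4 were among the 5 cofactors above background on at least 1 array. Of all such probes 40.2% were called in either direction. Meis1, a partner of many Hox proteins, read 104, 96.1 and 123 in KO and 352, 384 and 332 in WT, 2.97-fold lower in KO (adjusted p = 2.5e-05). Its relative Meis2 was 2.94-fold lower (adjusted p = 7.3e-06), at 29.1, 20.5 and 14.3 in KO, where 2 of 3 cultures were above background, and 156, 146 and 130 in WT. All KO values of both genes lay below all WT values. Pbx3 was 1.34-fold lower (adjusted p = 0.0048), above background in 1 KO culture and in all WT cultures, and Pbx2 was 1.30-fold lower (adjusted p = 0.014; 0.095 with the offset at 0 and 0.16 under median scaling). With the offset at 0 the log2 difference of Meis2 was -2.87 against -1.55 and that of Pbx3 -0.98 against -0.42.

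Of 24 measured transcription factors outside the clusters that mark the position of mesenchyme, 6 were higher and 4 lower in KO, with 11 near background on every array. Over all probes 10.4% were higher and 12.1% lower. Above background on at least 1 array were 13 of the 24, and 40.2% of all such probes were called in either direction. Foxd1, a factor of kidney stroma and other regional mesenchyme, read 8.72, 9.97 and 6.01 in KO and 281, 283 and 212 in WT, at least 4.76-fold lower in KO (adjusted p = 9.6e-07). En1, which marks ventral limb ectoderm and a lineage of dorsal skin fibroblasts, read 145, 164 and 142 in KO and 6.69, 2.77 and 5.01 in WT, at least 2.59-fold higher (adjusted p = 2.1e-06). The limb mesenchyme factor Prrx1 was 2.60-fold higher in KO (adjusted p = 5.6e-06), and Osr2, a factor of palate and joints, 3.90-fold (adjusted p = 9.3e-05), with WT replicate 2 left out of its fit because of its scanner flag. With the offset at 0 the log2 differences were -4.60 for Foxd1 against -2.44, 3.91 for En1 against 1.67, 1.94 for Prrx1 against 1.38 and 2.76 for Osr2 against 1.97. The limb-type factors Tbx4 and Pitx1, which mark the hindlimb, were near background on every array.

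**Figure D4:**
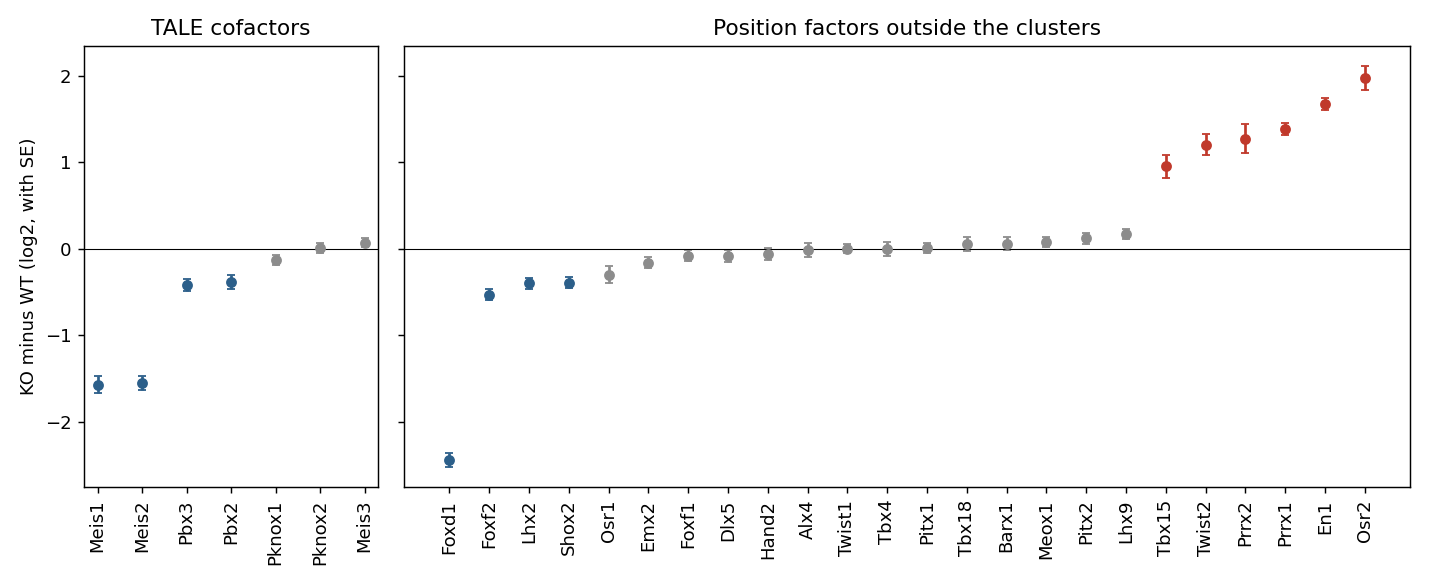
KO minus WT difference on the log2 scale with its SE (y axis) of the 7 measured TALE cofactors and the 24 measured position factors outside the clusters (x axis, ordered by difference); blue and red points were lower and higher in KO at an adjusted p under 0.05, grey points did not pass. Meis1 and Meis2 are the lowest cofactors and Foxd1 the lowest position factor.

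Polycomb proteins keep Hox genes silent and Trithorax proteins keep them active. Among 12 measured Polycomb genes 2 were higher, 1 was lower and 9 did not pass. Ezh1, a histone H3 methyltransferase of the repressive complex, was 3.42-fold higher in KO (adjusted p = 2.7e-05), at 1800, 1590 and 1820 against 355, 419 and 338 in WT. Ring1, a ubiquitin ligase of the other Polycomb complex, was 1.49-fold lower (adjusted p = 0.0036), and the chromodomain protein Cbx8 1.26-fold higher (adjusted p = 0.035; 0.097 with the offset at 0). Of 6 Trithorax and demethylase genes 2 were lower and none higher, Dpy30 by 1.77-fold (adjusted p = 3.5e-05) and Ash2l by 1.23-fold (adjusted p = 0.0066; 0.27 under median scaling), both subunits of the methyltransferase complexes that mark active genes. With 22.6% of all probes called, 3 of 12 and 2 of 6 are not read as a result about these lists.

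Of 9 upstream factors 1 passed, where 22.6% of all probes did. It was Gmnn, the replication inhibitor geminin, 1.42-fold lower in KO (adjusted p = 0.0045), which lost its call under median scaling (adjusted p = 0.14). Cdx1 and Cdx2, homeodomain factors that activate Hox genes in the embryo, were near background on every array, and Cdx4 did not pass (log2 difference -0.07, adjusted p = 0.74). Of 16 measured genes beside the clusters, 4 were higher in KO and 1 lower, with 11 not passing. Among all probes above background on at least 1 array 40.2% were called, and 13 of the neighbours were above background, so 5 calls are near that share. The lowest and highest log2 differences were -0.44 and 0.75, the latter that of Nfe2l2, near the Hoxd cluster, which was 1.68-fold higher (adjusted p = 0.0020). Hibadh, near Hoxa13, was 1.45-fold higher (adjusted p = 0.0074), Cbx1, near Hoxb1, 1.26-fold higher and Calcoco1, the next protein-coding gene after Hoxc13, 1.48-fold higher (adjusted p = 0.0090 and 0.016). With the offset at 0, Hibadh, Cbx1 and Calcoco1 did not pass. Evx1 and Evx2, the homeobox genes next to Hoxa13 and Hoxd13, were near background on every array.

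Some markers of other cell types also differed between the genotypes. Over the whole array 10.4% of probes were higher in KO and 12.1% lower. Of 8 epithelial markers, Krt18 and Krt19 were higher in KO, and Cdh1, Epcam, Krt5, Krt8, Krt14 and Cldn4 were near background on every array. The summed background-subtracted intensity of the epithelial list was 2270 to 3350 in KO and 42.9 to 51.1 in WT. Most of it in KO was the Krt19 probe, at 2680, 3190 and 2170. Of 6 neural markers 4 were higher in KO, where 10.4% of all probes were, with a summed intensity of 497 to 597 against 47.5 to 55 in WT. Above background on at least 1 array were 5 of the 6, and 40.2% of all such probes were called in either direction. The higher markers were Gap43, Stmn2, Sox2 and, fitted without WT replicate 2 for the same reason as Osr2, Nefm. Sox2 was above background in 1 KO culture only, and at least 1.05-fold higher. Of 3 muscle markers Tnnt2 was 1.56-fold lower in KO (adjusted p = 4.6e-04) and the others did not pass. The part of these markers in the Hox result was not tested.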

How the data were processed

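RNA of 3 KO and 3 WT cultures was measured on CodeLink 20K mouse arrays. Per the labels, cultures were labelled with Cy5 and a pool of their genotype with Cy3, but each file holds 1 channel, taken as that of the culture named inside it. Per the file headers, the deposited values include spot mean, spot median and background intensity. The background-subtracted intensities printed here are a further deposited value and not the normexp values used in the fit. Per the submitters' processing notes the authors used limma. The authors' value table holds the normalized intensity that was also deposited for each array, with all 19800 rows matched. The names inside the files of KO replicates 2 and 3 are exchanged against the titles, which are followed here. In the authors' value table the values under KO replicate 2 are those read here for KO replicate 3, in 100.0% of rows, and the reverse. The numbers 2 and 3 of the KO arrays may therefore be swapped, which leaves the genotypes unchanged.

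Spot mean and background median were corrected with normexp (offset 50, limma 3.58.1, R 4.3.3). Spots with the scanner flags M, C or I were left out, control spots dropped after normexp, and log2 values of 19801 gene probes quantile normalized. The genotypes were compared by lmFit and eBayes on 19604 probes (two-sided; Benjamini-Hochberg over the whole array). The steps were tested on simulated data, where the changed probes were few, balanced in direction and drawn from those with signal in WT. A share of changed probes as large as the 22.6% called here was not simulated. Changes of probes near background in WT, such as Hoxd11, were not covered. Above background means marked so by the scanner software (good or saturated). Genes were named through RefSeq accessions without version (10712 probes) or a unique synonym (101) in a table of GRCm38.p6. Hox genes have 1 probe each, and other genes are represented by their brightest. A Hox gene is given with its array values where it passed and all 3 arrays of the brighter genotype detected it. Hoxa13, Hoxd9 and the values of other Hox genes outside this rule were added after they were seen. From each other list up to 4 genes with the smallest adjusted p are named. Near-background list members were named after their values were seen, and a planned list of genes with a similar profile is not given. The members and lists were chosen with earlier results of these data known. Same-numbered KO and WT arrays deviated from their group means with correlations of 0.24, -0.116 and 0.097. With KO replicates 2 and 3 exchanged these were 0.24, 0.201 and -0.087. With 3 arrays per group they cannot show whether the numbers pair the cultures, and the main fit did not pair them. One gene of the cofactor list is not reported here.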

Additional observations from a re-analysis of the deposited data

How the results depend on the processing

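Over 17 alternative settings 5 to 9 Hox genes were higher in KO and 8 to 11 lower, and no called Hox gene changed direction. With the offset at 0, 2717 probes were called over the array against 4421, 5 Hox genes were higher and 9 lower, 1 Hox gene of groups 1 to 3 was lower, 0 of groups 4 to 8 were higher, and the calls fell to 1 Trithorax gene, 0 upstream factors and 1 neighbour. The median of the Hox genes was then -0.24. It was -0.09 without background correction and under median scaling, -0.08 with the spot median, -0.20 with the authors' value table, -0.50 over probes above background and -0.11 with array weights. The spot median left 0 genes of groups 4 to 8 higher, and with it or median scaling 0 upstream factors passed. With the authors' values 1 Hox gene of groups 1 to 3 was lower and 3 neighbours passed. Leaving out 1 array gave 6 to 9 Hox genes higher and 8 to 11 lower, a median of -0.09 to -0.07, 1 to 2 genes of groups 1 to 3 lower, 0 to 1 of groups 4 to 8 higher and 3 to 6 neighbours. Without KO replicate 3 calls rose to 5826 probes, 9 Hox genes higher and 11 lower. With the replicate block 7 Hox genes were higher and 9 lower, and 0 of groups 4 to 8 were higher, and with KO replicates 2 and 3 exchanged in it 8 were higher and 9 lower. The share of calls that were higher in KO was 46.3% as reported and 64.1% under median scaling. The cause of these changes was not tested. The number of arrays, 3 per group, limits the precision, and genes near background on every array get no fold.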
